A study of Mus musculus with 4 samples.

Results

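The main histone gene cluster of the mouse lies on chromosome 13, and its CpG methylation was measured in liver by enhanced reduced representation bisulfite sequencing (ERRBS). In this assay MspI, an enzyme that cuts at CCGG, releases CpG-rich fragments, and bisulfite then turns unmethylated cytosines into T while methylated ones stay C. The cytosines described here were those of an interval of 2070 kb around the cluster with at least 10 reads in every mouse, matched by chromosome, position and strand. Their first and last positions were chr13:21710270.0-23764910.0 (mm10). There were 743 of them among 1276684 such common sites of the genome, and 998 sites of the interval were read in at least 1 mouse. Livers came from 4 male mice between 6 and 8 weeks of age. The Mixed mice (Mixed-1 and Mixed-2) were of a mixed, undefined background that includes C57BL/6J, and the B6 mice (B6-1 and B6-2) were C57BL/6. The strains were kept at different institutions and read to different depths, so strain, housing and depth cannot be told apart. Coverage summed over all sites, where a read counts at each CpG it covers, ranged from 60654199 to 99215153 per mouse. The median coverage of the interval's sites was 51 reads. The assay does not separate methylcytosine from hydroxymethylcytosine, and in whole liver a level between the extremes cannot be divided among cell types or alleles.

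Replication histone genes encode the core histones H2A, H2B, H3 and H4 and the linker histone H1 that package newly made DNA. They are short, mostly lack introns, and are transcribed mainly in S phase, and their mRNAs end in a conserved stem-loop in place of a poly(A) tail. A few members of the same families are used in male germ cells, where they replace the somatic forms as chromatin is remodelled. H1f6 encodes the testis linker histone H1t, and H2ac1 and H2bc1 encode testis H2A and H2B. CpG-rich gene starts are usually free of methylation in somatic tissue, while many germ cell genes are methylated there.

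The interval held 51 replication histone genes and 1 testis-specific gene, H1f6. A site was given to a gene if it lay between 500 bp upstream of the start and the 3′ end, and the remaining sites were called spacers. The symbol H4bc24 is described in the annotation as an H2B gene and was counted as such. Coding sequences and starts below show where CpGs were read. Each is written 5′ to 3′ on the gene's strand of GRCm38.p6, with CpGs that have at least 1 common site in capitals. H2ac1 and H2ac4 are a testis and a replication H2A, H2bc1 is the testis H2B, and H1f4 is a replication linker histone.
H2ac1 (chr13:23934548-23934686, plus strand): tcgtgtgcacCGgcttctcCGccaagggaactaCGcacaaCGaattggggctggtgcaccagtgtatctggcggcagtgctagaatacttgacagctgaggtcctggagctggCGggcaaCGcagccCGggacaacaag
H2ac4 (chr13:23751188-23751281, plus strand): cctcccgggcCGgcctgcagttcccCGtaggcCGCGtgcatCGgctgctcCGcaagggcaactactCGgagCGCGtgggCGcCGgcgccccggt
H2bc1 (chr13:23933984-23934153, minus strand): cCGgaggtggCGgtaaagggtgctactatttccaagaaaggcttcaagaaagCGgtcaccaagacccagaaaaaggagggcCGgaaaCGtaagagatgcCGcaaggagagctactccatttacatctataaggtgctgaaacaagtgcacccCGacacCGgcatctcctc
H1f4 (chr13:23622340-23622497, minus strand): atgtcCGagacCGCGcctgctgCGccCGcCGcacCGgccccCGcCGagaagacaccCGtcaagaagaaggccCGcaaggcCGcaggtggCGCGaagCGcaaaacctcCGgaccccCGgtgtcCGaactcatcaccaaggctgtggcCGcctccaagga
The capital CpGs of H2ac1 averaged 90.1% and 83.5% methylation in the Mixed mice, 1 and 2, and 96.7% and 88.9% in the B6 mice, and values of 4 mice are given in this order from here on. Those of H2ac4 averaged 0.32%, 0.16%, 0.16% and 0%. Those of H2bc1 lay between 89.3% and 96.5%, and those of H1f4 between 0.038% and 0.13%. H2ac1 and H2bc1 thus read as methylated in every mouse, and H2ac4 and H1f4 as almost free of methylation.

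RefSeq promoters, which run from 250 bases before to 50 bases after the start, are shown for the replication H4 gene with the most sites and for H1f6.
H4c1 (chr13:23761200-23761499, minus strand): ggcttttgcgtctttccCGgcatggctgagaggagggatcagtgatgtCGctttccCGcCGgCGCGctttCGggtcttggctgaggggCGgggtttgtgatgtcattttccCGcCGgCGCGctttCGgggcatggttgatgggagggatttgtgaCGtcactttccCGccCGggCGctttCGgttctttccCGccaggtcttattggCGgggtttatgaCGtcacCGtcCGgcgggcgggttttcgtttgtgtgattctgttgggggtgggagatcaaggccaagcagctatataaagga
H1f6 (chr13:23695561-23695860, plus strand): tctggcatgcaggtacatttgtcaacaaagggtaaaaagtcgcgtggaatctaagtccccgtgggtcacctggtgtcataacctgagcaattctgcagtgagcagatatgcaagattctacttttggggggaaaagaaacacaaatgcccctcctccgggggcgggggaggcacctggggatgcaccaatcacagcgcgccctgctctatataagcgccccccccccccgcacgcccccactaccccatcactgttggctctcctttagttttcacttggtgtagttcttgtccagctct
In the H4c1 promoter 23 of 27 CpGs were read, at 33 sites, with means of 0.088%, 0.18%, 0.53% and 0%. The highest of these sites averaged 2.92%. In the H1f6 promoter none of the 10 CpGs had a common site.

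The consensus of the histone 3′ stem-loop was searched on the sense strand within 150 bp of the stop codon. It was found in 43 of the 51 replication genes, against 0.28% of 21774 protein-coding genes of the genome. The stem-loop, in capitals, is shown for replication genes of 2 core types and for 2 testis genes, because it is a feature that the replication and testis members share.
H2ac4 (chr13:23751567-23751592, plus strand): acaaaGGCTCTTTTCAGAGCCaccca
H4c3 (chr13:23698084-23698109, minus strand): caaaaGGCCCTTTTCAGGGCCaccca
H1f6 (chr13:23696520-23696545, plus strand): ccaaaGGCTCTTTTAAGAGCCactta
H2ac1 (chr13:23934886-23934911, plus strand): aaaaaGGCTCTTTTCAGAGCCacctt
The core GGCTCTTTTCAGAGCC was found in 29 replication genes and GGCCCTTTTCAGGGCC in 7, and H1f6, H2ac1 and H2bc1 also held the motif. TATAAA on the sense strand, in the 250 bp before the start, was found in 20 of the 51 genes and in 8.68% of all protein-coding genes. CCAAT on either strand of the promoter was found in 42 of the 51 and in 38.6% of all. These matches are letters in a window and do not show binding.

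ERRBS reached 20 of the 51 replication histone genes, with 2 to 52 common sites each and 18 genes at 5 or more. All 5 replication H1 genes were reached, with 92 sites, but only 2 of 12 H2A genes, 4 of 14 H2B genes, 5 of 9 H3 genes and 4 of 11 H4 genes. Genes without a site were not poorer in CpGs, with a median of 6.74 CpGs per 100 bp of window against 5.39 in the genes reached. Reads of 50 bases were placed at the ends of MspI fragments cut from the reference, with an assumed size of 70 to 320 bp, and each was searched in the bisulfite-converted genome. The prediction is a partial one, since it covered only 52.1% of the replication histone sites that were read. Of the 31 genes without a site, 9 had no CpG cytosine under such a read and 20 had them only under reads that occur more than once in the genome. H2bc13 and H4c8, the other two, had CpGs under unique reads but no common site. Of the 20 genes reached, 16 had unique reads by this measure, 2 had repeated reads only and 2 had no predicted read. At 28 of the 242 replication histone sites the surrounding 50 bases occurred more than once, so reads there could come from a near-identical gene. Those 28 sites, in 10 genes, averaged 0.46% and none averaged above 2.35%.

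H1f6 had no site in any mouse. Its window held 35 CpGs with an observed to expected ratio of 0.44, where the replication genes had a median of 0.87, and no predicted read covered it. The nearest common sites were 7825 bp before and 1955 bp after the gene. A comparison of testis-specific with replication histones inside the interval was therefore not possible, and methylation of H1f6 was not measured.

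Replication histone genes had the lowest methylation of the interval and spacers the highest, in each of the 4 mice. At the 242 replication histone sites the Mixed mice averaged 2.31% and 2.33%, and the B6 mice 2.49% and 2.58%. At the 337 sites of other genes they were 12.6%, 12.75%, 11.8% and 12.7%, and at the 164 spacer sites 42.3%, 42.5%, 41.5% and 41.8%. The classes did not overlap between any mice. Other genes exceeded replication histone genes by 10.03 points ± 0.48 (SD, n = 4) and spacers did so by 39.6 points ± 0.56 (SD, n = 4), both higher in 4 of 4 mice. The exact two-sided sign-flip permutation test gave p = 0.13 for both, the smallest value that 4 mice allow, so neither can pass 0.05. With windows cut to the transcribed region, the spacer difference was 21.5 points, because gene starts then count as spacers. Of the replication histone sites, 235 of 242 lay below 20% on average, against 277 of 337 in other genes and 80 of 164 in spacers. Sites above 80% numbered 5, 19 and 54 in the same order. These class means mix positions within genes. In the first 250 bp from the start, other coding genes of the interval averaged 0.17% over 46 sites and replication histone genes 0.17% over 126. From 250 to 500 bp the means were 0.10% over 31 sites and 1.77% over 20, so low starts were not particular to histone genes.

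**Figure D1:**
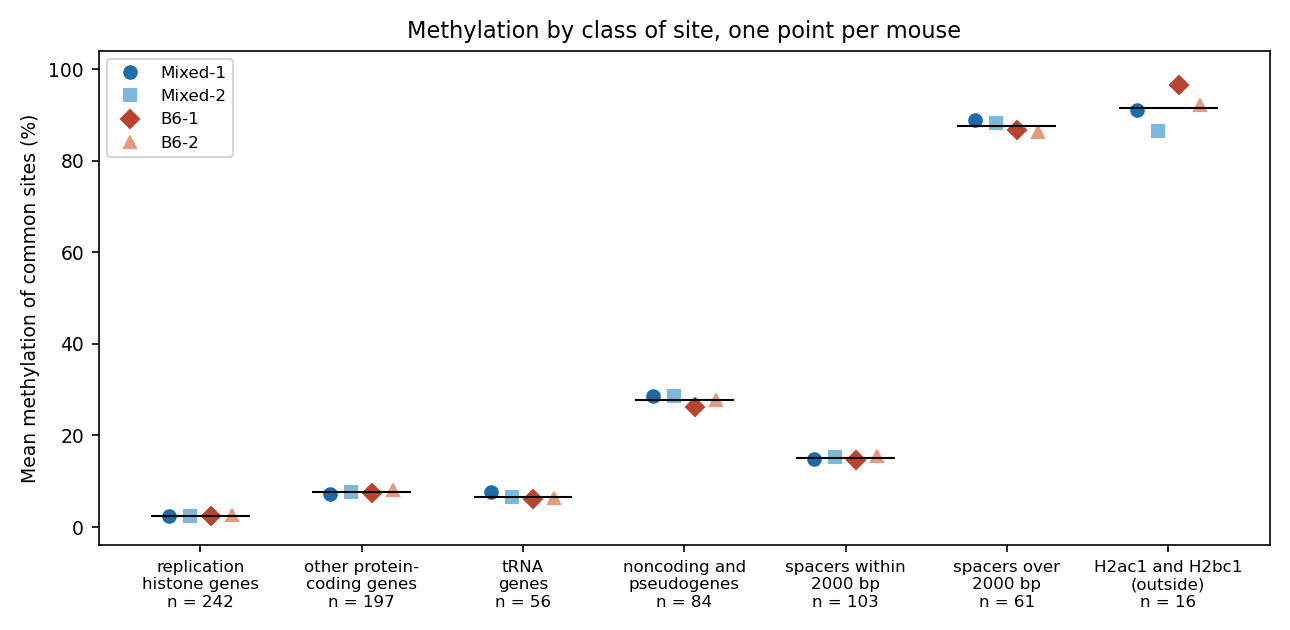
Mean methylation of common sites in percent (vertical axis) for 7 classes of site (horizontal axis, n = sites), with a point for each mouse and a black line at the mean of the 4 mice. Replication histone genes sit between 2.31% and 2.58%, spacers over 2000 bp from a histone or tRNA gene between 86.3% and 88.8%, and H2ac1 with H2bc1, which lie outside the interval, between 86.5% and 96.5%.

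Of the 20 replication histone genes reached, 17 averaged below 1% methylation. Among H1 genes, which encode linker histones, H1f2 was lowest and H1f1 highest. H1f2 had 0 methylated of 2787 reads over 10 sites and 4 mice, where a read counts at each site it covers. That allows a share of up to 0.11% (3 reads of the total), for counting error only. Reads over several sites are counted more than once, so the limit for separate reads is higher. H1f1 averaged 2.54%, 1.48%, 3.31% and 2.64% over 11 sites. Among H2A genes, H2ac6 averaged 0.20% ± 0.40 and H2ac4 0.14% ± 0.10 (SD, n = 4). Among H3 genes, H3c4 was highest at 0.35% ± 0.25 and H3c3 lowest, with 0 methylated of 1396 reads. Among H4 genes, H4c9 was highest at 0.66% ± 1.32 and H4c3 lowest, with 0 methylated of 685 reads. H2bc3 was the lowest H2B gene with 0 methylated of 905 reads, but its 8 sites lie upstream of its start, inside the histone pseudogene H2ac5-ps. Among H2B genes only H2bc9, with 3 sites, was read in its coding part. Apart from H1f1, each of these genes read 0% in at least 1 mouse, so their order lay within the spread between mice. Sites upstream of the start averaged 0.15% ± 0.11 (78 sites) and sites in the coding part 0.40% ± 0.16 (145 sites). The upstream sites came from 7 genes, and 52 of them were of H4c1 alone, so that mean is mostly of 1 promoter.

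**Figure D2:**
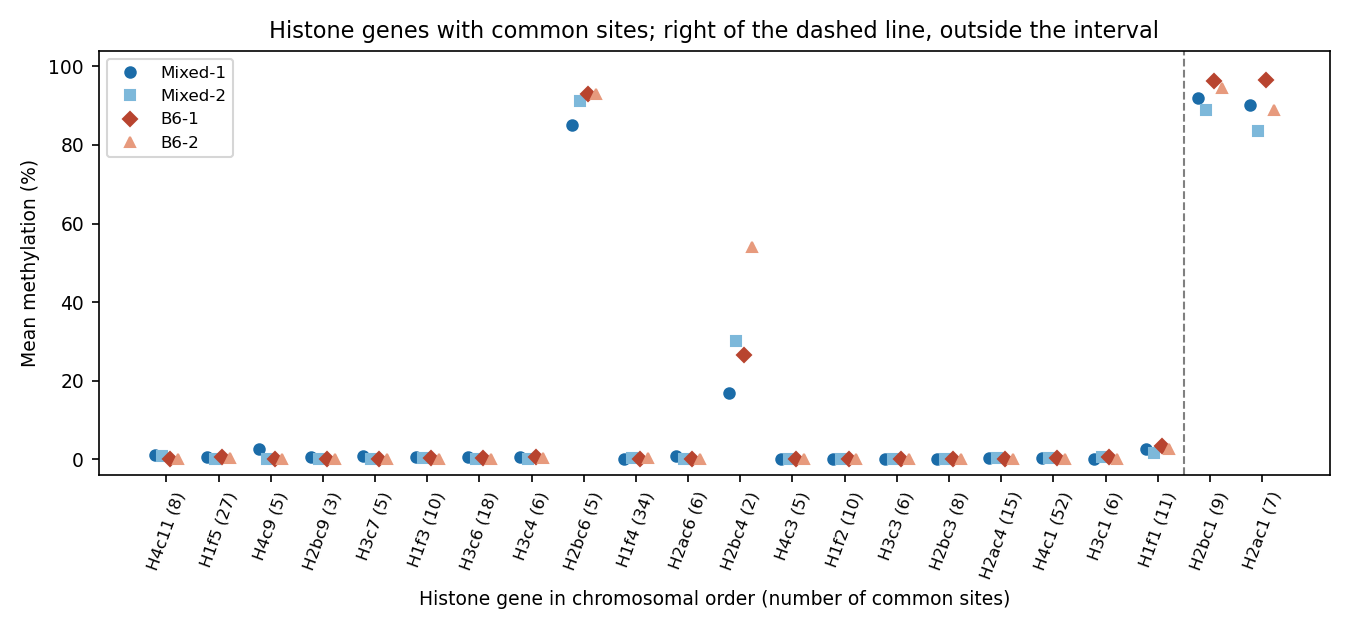
Mean methylation in percent (vertical axis) of every histone gene with common sites, in chromosomal order (horizontal axis, number of sites in brackets), with a point for each mouse. Except for H2bc6, H2bc4 and H1f1 the genes of the interval average below 1%, while H2bc1 and H2ac1, right of the dashed line, average 92.9% and 89.8%.

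Only H2bc6 and H2bc4, both H2B genes, had sites with a mean above 20%. H2bc6 averaged 85.1%, 91.3%, 93.0% and 93.0% at 5 sites, and H2bc4 averaged 16.8%, 30.1%, 26.6% and 54.1% at 2 sites. At H2bc4 the strains overlapped. Both genes are annotated with long transcripts. The H2bc6 gene, on the minus strand, spans 23583670 to 23621124, and its coding part begins at 23585956. Its sites, from 23591386 on, lie between the annotated gene start and the coding part. The H2bc4 gene is on the plus strand, its coding part ends at 23684612, and its sites lie past it at 23687983 and 23687986. No site of either gene lay in the coding part or at the gene start. Without these genes, a choice made after their values were seen, the replication histone mean was 0.43%, 0.20%, 0.36% and 0.21%, and all 235 sites were below 20%.

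Around the starts of replication histone genes methylation stayed low. Sites from 500 to 250 bp upstream averaged 0.088%, those in the last 250 bp before the start 0.19%, and those in the first 250 bp of the transcript 0.17%. Of the upstream sites, 52 were of H4c1. From 250 to 500 bp the mean was 1.77% ± 0.43, from 500 to 1000 bp 3.34% ± 0.81, and from 1000 to 2000 bp 23.9% ± 1.80 (SD, n = 4). These are distances to the nearest start, so the last bins include spacer sites, and a few loci raise their means. The 20 sites from 250 to 500 bp include 4 of H1f1 at 6.71%. The 18 sites from 500 to 1000 bp include a spacer site at 49.1%. The 19 sites from 1000 to 2000 bp include the 6 after H1f1, at 70.8%, and a spacer site at 28.3%. The rise is therefore not a general one.

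**Figure D3:**
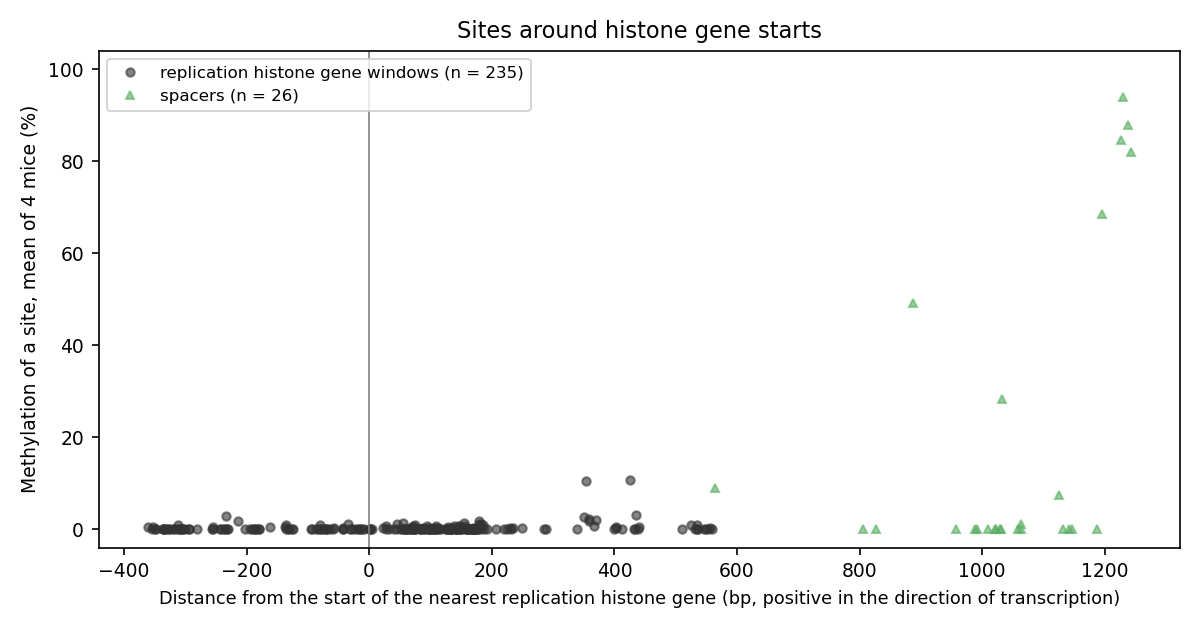
Methylation of single sites in percent, mean of the 4 mice (vertical axis), by distance in bp from the start of the nearest replication histone gene (horizontal axis), for sites within 2000 bp of a start, which leaves out those of H2bc4 and H2bc6. The histone gene sites plotted lie at or below 10.7%, and the sites above 60% are spacers more than 1000 bp from the start.

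An edge of methylation lay at H1f1, the last gene of the interval, and was picked after its values were seen. The first 7 sites of the gene, 128 to 176 bp from its start, averaged 0%, 0%, 0.32% and 0%. The next 4, at 351 to 436 bp, averaged 7.0%, 4.06%, 8.53% and 7.27%. At 1125 bp, past the gene, the site averaged 7.50% ± 6.33, and the 5 sites from 1196 to 1242 bp averaged 83.6%, 86.6%, 76.7% and 86.7%. Between the sites at 1125 and 1196 bp, methylation went from at most 13.8% to at least 63.0% in every mouse.

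**Figure D4:**
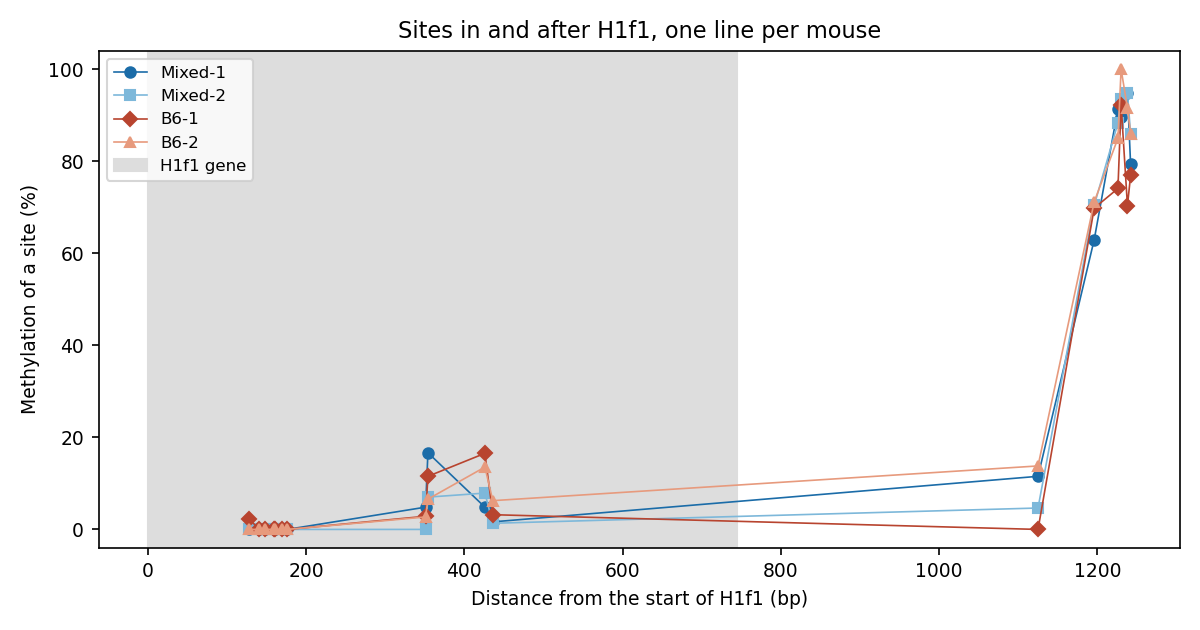
Methylation of single sites in percent (vertical axis) by distance in bp from the start of H1f1 (horizontal axis), with a line for each mouse and the gene shaded. Sites stay at or below 16.7% up to 1125 bp and reach between 63.0% and 71.2% at 1196 bp.

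H2ac1 and H2bc1, 281 bp apart, lie 163725 bp beyond the end of the interval. They were compared with the replication genes after their values were seen, as an addition to the rule. Their 16 common sites averaged 91.1%, 86.5%, 96.5% and 92.1%, and 15 of 16 averaged above 80%. The difference from the replication histone sites was 89.1 points ± 4.0 (SD, n = 4), higher in 4 of 4 mice, and is given as a description because of that choice. The coding sequences of H2ac1 and H2ac4 were 83.5% identical and shared 23 CpGs at aligned positions. At the 3 shared CpGs read in both, H2ac1 averaged 91.3%, with no CpG below 82.4%, and H2ac4 averaged 0.050%. H2bc1 and H2bc9, a replication H2B, were 87.2% identical, and at the 1 shared CpG read in both they averaged 92.3% and 0.41%. The windows of H2ac1 and H2bc1 had observed to expected CpG ratios of 0.62 and 0.69.

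Other histone genes of the genome were described by their start regions, 500 bp on each side of the start. Of 16 genes on chromosomes 3, 6 and 11, 10 had sites, and 9 of these averaged between 0.039% and 4.25%. The remaining gene, H3f4, a testis H3 also counted in this list, averaged 41.1% ± 3.42 (SD, n = 4). Replacement histones, which are made outside S phase, averaged between 0.086% and 5.42% in the 7 of 8 genes with sites. Of 6 germline histones, H1f7, a spermatid linker histone, had 5 sites with a mean of 89.3% ± 1.23, and 3 had no site. The start regions of H2ac1 and H2bc1 overlap and averaged 91.5% over 16 sites and 92.7% over 13. They share sites, so these are not separate values. No site given to either gene lay upstream of its start, and none of the 8 CpGs of the H2ac1 promoter had a common site. All 8 genes of a list of factors for histone mRNA had sites. Slbp, which binds the stem-loop, averaged 0.43%, Npat, a coactivator of histone transcription, 0.044%, and the highest of the 8, Lsm10 of the U7 particle that cuts histone mRNA, 0.54%.

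Against the starts of all other protein-coding genes, the replication histone starts were lower by 1.35 points ± 0.11 (SD, n = 4). The 224 histone sites averaged 0.43%, 0.20%, 0.38% and 0.22%, and the 447251 other sites 1.69%, 1.66%, 1.63% and 1.65%. The histone starts were lower in 4 of 4 mice, with p = 0.13 by the exact sign-flip permutation test. Counted by gene, with at least 5 sites, the medians were 0.20% for 15 histone genes and 0.20% for 11047 others. None of the 15 histone genes but 4.93% of the others averaged above 20%, a share at which 15 genes may well hold none. With each gene given equal weight, at any number of sites, the difference was -6.95 points, although these medians did not differ.

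Other protein-coding genes of the interval were low at their starts and varied further inside. At the 56 sites near the start of Zfp322a, a zinc finger gene, methylation averaged 0.15%, while 3 sites further into the gene averaged 68.1% and ranged up to 100%. Abt1, a regulator of basal transcription, averaged 0.18% at 23 start sites and Zfp184, another zinc finger gene, 0.16% at 22. Btn1a1, a butyrophilin of milk fat, averaged 0.62% at 25 sites away from its start. Pom121l2, a nucleoporin-like gene, averaged 16.7%, 10.9%, 13.1% and 16.6% at 30 sites inside the gene. Prss16, a thymus serine protease, averaged 18.1%, 25.4%, 21.7% and 23.7% at 34 sites inside the gene, and single sites ran from 0% to 78.6%. These 6 were all the other coding genes with at least 5 sites. Hfe, a regulator of iron uptake, averaged 0.41% at 3 sites, and Btn2a2, a butyrophilin, 68.3% at its only site. None of the 75 vomeronasal receptor genes and pseudogenes, which fill the middle of the interval, had a site, and they held a median of 0.39 CpGs per 100 bp.

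The windows of transfer RNA genes stood among the low classes, at 7.64%, 6.64%, 6.05% and 6.33% over 56 sites of 11 genes out of 79. All 56 sites lay in the 500 bp upstream, so no tRNA gene was itself read. Window means ran from 0% in n-TGgcc7, with 0 methylated of 262 reads, to 27.5% ± 2.59 in n-TDgtc11. The 262 reads give an upper limit of 1.15%, but neighbouring sites share reads, so the limit for separate reads is higher. No tRNA site averaged above 80%. Noncoding genes and pseudogenes averaged 27.8% ± 1.15 over 84 sites.

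Spacers fell into low and high stretches by their distance from histone and tRNA genes, a split noticed in the data. Within 2000 bp of such a gene 103 spacer sites averaged 14.8%, 15.3%, 14.7% and 15.5%. Beyond 2000 bp, 61 sites averaged 88.8%, 88.3%, 86.7% and 86.3%, and none of these was below 20%. The difference was 72.4 points ± 1.40 (SD, n = 4), higher in 4 of 4 mice, and is given as a description because the split was seen in these data. The stretch with the most sites, 18 between 21995382 and 21995718, lay 863 to 1139 bp from a tRNA gene and averaged 2.21% ± 0.39. The next, 16 sites between 22018214 and 22020881, ran from 0% to 81.6% and averaged 24.9% ± 2.79. The third, 14 sites between 23739613 and 23739994, began 82 bp past H1f2 and averaged 0.085% ± 0.068. The histone genes form 2 blocks, and the 80 spacer sites between the blocks averaged 67.1% ± 0.91, against 14.7% ± 0.79 for 57 spacer sites in the first block and 12.5% ± 0.87 for 21 in the second. Most spacer sites beyond 2000 bp lie between the blocks, so distance and block largely go together. Of the 80 sites between the blocks, 17 averaged below 20%.

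**Figure D5:**
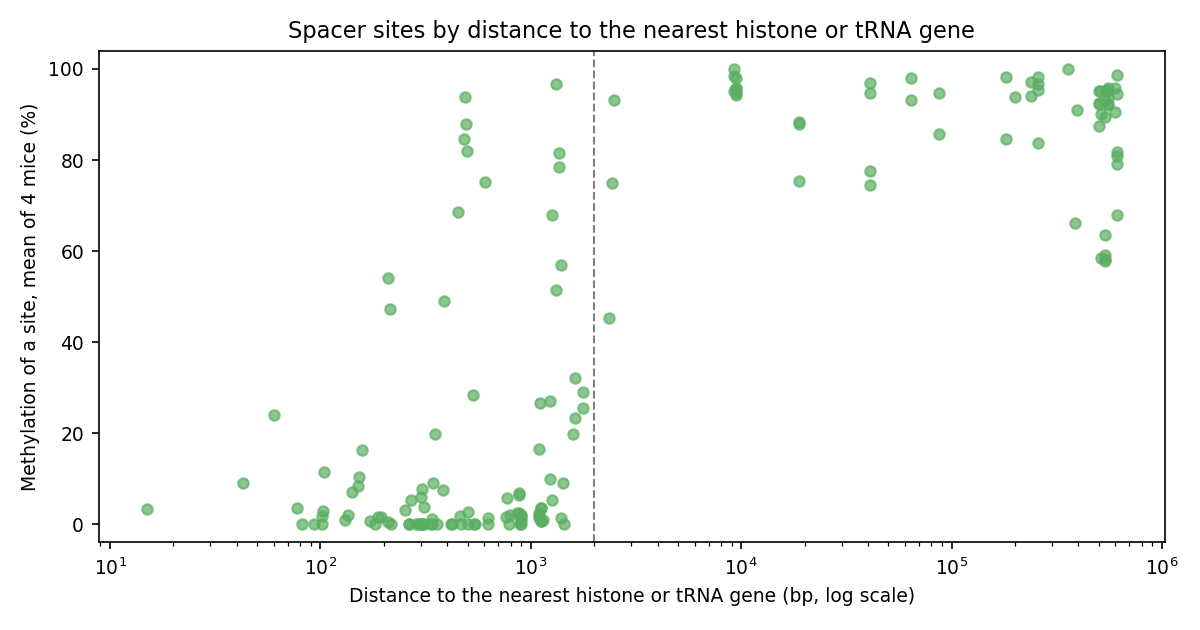
Methylation of single spacer sites in percent, mean of the 4 mice (vertical axis), by distance in bp to the nearest histone or tRNA gene (horizontal axis, log scale), with a dashed line at 2000 bp. Right of the line no site is below 20%, and left of it 80 of 103 are.

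Between strains, no cytosine of the interval passed the test. The test was a logistic model for each site with limma's moderation of the spread, and a call needed an adjusted p under 0.01 and a difference of at least 25 points. It called 70 of 1276684 common sites, or 0.00548%, and 0 of the 743 here. On simulated data it recovered 73.5% of changes that were all set well above 25 points. Recovery of changes near 25 points was not tested, so 0 calls do not show that no site differs. An unadjusted p under 0.05 was reached by 15 of the 743, and by 2.03% of all common sites. Fisher's exact test on pooled reads, which ignores the spread between mice, called 0.126% of all sites and 1 of the 743. That cytosine, at 22019787 on the plus strand in a spacer, read 37.5% of 32 reads in Mixed-1 against 89.5% of 57 reads in Mixed-2. It read 96.6% of 59 reads in B6-1 and 90.2% of 61 in B6-2, so Mixed-1 alone was low. The other strand of the same CpG read 51.1%, 89.3%, 93.7% and 92.6%.

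Strain means had no stable direction at replication histone and spacer sites. B6 mice exceeded Mixed mice by 0.21 points at replication histone sites and were lower by 0.75 points at spacer sites, and H2ac1 and H2bc1 were 5.48 points higher in B6. The exact two-sided permutation test gave p = 0.33 for the replication histone and spacer sites, the smallest value that 2 mice against 2 allow. With reads pooled in place of site means both directions turned, to -0.51 and 2.26 points, and without H2bc4 and H2bc6 the replication histone difference was -0.028 points. The H2ac1 and H2bc1 difference was 3.20 points without Mixed-2 and 3.29 without B6-1. At H2ac1 and H2bc1, B6-2 at 92.1% and Mixed-1 at 91.1% lay closer to each other than to the other mouse of their strain.

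As a check of the labels, start regions of marker genes were read. Of 10 hepatocyte markers 3 had sites, and Apoa2 averaged 0.72% at 10 sites, Hnf4a 25.1% at 7 and Pck1 27.0% at 2. Of 6 leukocyte markers only Coro1a had sites, with a mean of 7.36% over 37. Hnf4a and Pck1 thus lay above Coro1a, and the check does not decide the tissue label. The germ cell genes Ddx4, Dazl, Sycp1 and Mael averaged between 65.0% and 86.5%. Most hepatocyte and leukocyte markers had no site, so the share of other cell types in the livers was not measured.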

How the data were processed

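Liver DNA of 4 male mice was digested with MspI, per the labels, size-selected, treated with bisulfite and sequenced in single-end reads of 50 cycles. The study's discussion describes ERRBS in general as using TaqαI together with MspI, and the read prediction above used MspI only. The study's methods name BSMAP for mapping, and the submitters' processing notes list Bismark, SAMtools and mm10, without versions. The authors deposited, for each mouse and CpG cytosine, the coverage as a raw count of reads, with a minimum of 10, and the percent of reads that were C or T. Replicates were not pooled. The size range selected is not given in the sources used here.

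Methylated reads were taken as percent times coverage. Groups came from the sample titles. Sites were placed on GRCm38.p6 with RefSeq genes (500 bp upstream to 3′ end), in the order testis-specific histone, replication histone, other gene, spacer. Class means are means over sites in each mouse, compared by exact sign-flip permutation over mice. Strain means used exact permutation, and single sites a logistic model with limma 3.58.1 under R 4.3.3. The overdispersion prior was estimated on sites between 10% and 90%, a choice made after a first version failed when tested on simulated data. The version used passed that test, and its form with the replicate block did not. Other values used Python 3.11.15, numpy 2.4.6, scipy 1.17.1, pandas 2.3.3 and Biopython 1.88, which aligned coding sequences end to end.

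The members and lists were chosen with earlier results of these data known. Named were every testis-specific gene, the highest and lowest gene of each family with at least 5 sites, genes with a site above 20%, the 5 highest and lowest other coding genes, the extreme tRNA genes and the 3 spacer stretches with most sites. At 10 reads a site allows only coarse values, and amplified reads need not be separate molecules. Alternatives changed coverage limits, strand merging, pooling, windows, weighting, sequence uniqueness and the mice used.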

Additional observations from a re-analysis of the deposited data

Results flagged for a closer look

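For 5 of 34 genes examined 1 of the 4 mice stood apart from the others by Dixon's 95% limit for 4 values, and chance flags about 1 in 20 groups. In 4 of them a few reads decided this, because the other mice were at 0%. H4c9 averaged 2.63% in Mixed-1, from 5 methylated of 190 reads, and 0% in the other mice (gap over range 1). In Mixed-1 its 5 sites, between 22041205 and 22041253 on the same strand, each read 2.56% to 2.70% of 37 to 39 reads. The 5 methylated counts may thus be a single read. H3c7 averaged 0.77% in Mixed-1, from 1 of 129 reads, and 0% elsewhere (gap over range 1). H2ac6 averaged 0.79% in Mixed-1, from 2 of 253 reads, and 0% elsewhere (gap over range 1). The upstream sites of the tRNA gene n-TLcag10 averaged 0.10% in B6-1, from 1 of 1149 reads, and 0% elsewhere (gap over range 1). The 6 upstream sites of the tRNA gene n-TDgtc13 averaged 20.9% in Mixed-1, against 12.1% in Mixed-2 and 11.4% and 11.3% in the B6 mice (gap over range 0.92).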

How the results depend on the processing

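The class differences kept their direction under every alternative run. Other genes minus replication histones ranged from 8.49 to 13.3 points, spacers minus replication histones from 21.5 to 51.8, the start-region difference from -6.95 to -1.12, and H2ac1 with H2bc1 minus replication histones from 84.9 to 91.2. Testis-specific against replication histones, and against other genes, were not run inside the interval, since H1f6 had no site. The strain differences reversed in places. With reads pooled, B6 minus Mixed was -0.51 points at replication histone sites and 2.26 at spacer sites, and with coding-part windows or without H2bc4 and H2bc6, both chosen after seeing the data, it was -0.028 at replication histone sites. The cause was not tested. At H2ac1 and H2bc1 it was 3.20 points without Mixed-2 and 3.29 without B6-1. With Fisher's test 1 cytosine of the interval was called. Over all common sites the model called 70, against 137 at an adjusted p under 0.05, 125 at a difference of 10 points, 226 without Mixed-1, 281 without Mixed-2, 0 without B6-1, 0 without B6-2 and 1612 by Fisher's test. Of these, the settings that called sites anywhere, Fisher's test aside, called 0 in the interval, and the 2 fits without a B6 mouse, which called none anywhere, bear on nothing here. A lone mouse was assumed to vary like the other strain. Deviations of same-numbered mice had a correlation of 0.0026 in the interval, so the numbers give no pairing. With the replicate block the strain differences were 0.21, -0.75 and 5.48 points, and 0 sites were called, in a fit that failed when tested on simulated data, so this count says nothing about stability. Coverage limits single sites, and genes with near-identical copies were mostly not reached.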
